A study of Mus musculus with 10 samples.

Results

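Spp1, Nrgn, Nrn1, Epdr1, Gm156, Tpbgl and Dapl1 were expressed in CD8 T cells of tumours and were much lower in cells made to lack NFAT5. They are 7 of the 54408 annotated genes in the summed tables. They were picked because of this difference between the genotypes, so their levels and fold changes are given as a description, with no test. The name "nearly lost" held for 5 of them. Epdr1 and Tpbgl had 0 reads in every NFAT5 KO library, and Gm156, Spp1 and Nrgn kept 1.69%, 2.77% and 5.79% of their WT mean, while Nrn1 and Dapl1 kept 27.0% and 30.3%.

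The cells were P14 CD8 T cells, whose transgenic T cell receptor recognises the gp33 peptide, on the C57BL/6 strain. Both genotypes carried Nfat5 flox/flox alleles. WT cells had no Cre, and NFAT5 KO cells had a single copy of Cre driven by Cd4, a gene that developing T cells switch on before they become CD4 or CD8 cells. After 48 h of activation in culture, the cells (5 Mio, as the labels write it) were transferred into mice with subcutaneous B16-gp33 melanomas, a mouse line that expresses gp33. Tumours were taken 7 days later and their CD8 T cells sorted. RNA was sequenced from 5 samples of each genotype: 678_2 and 678_4 with 679_3, 679_4 and 679_5 for WT, and 678_3, 678_5 and 678_6 with 679_2 and 679_6 for NFAT5 KO. The titles do not explain the leading 678 or 679, here the label prefix. No label ties a library to a mouse, so the spread and the p-values below are those between libraries, which may be partly technical. The labels do not give the ages of the animals or the state of the hosts' own T cells.

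The libraries held 22444310 to 32001285 estimated counts. The sorted cells carried the markers of CD8 T cells, and the mean level of the list was slightly higher in NFAT5 KO. The summed level of 7 such genes (Cd8a, Cd8b1, Cd3d, Cd3e, Cd3g, Trac and Cd2) ran from 7190 to 8138 CPM (gene counts divided by the normalised library size, on a common scale) in WT libraries, and from 7842 to 8267 CPM in NFAT5 KO ones. The mean log2 CPM of the list differed by 0.13 (two-sided exact permutation test, n = 5 each, p = 0.00794, adjusted over 12 marker lists 0.0476; unadjusted p = 0.0556 with library size alone as scaling), and Trac and Cd2 rose (edgeR adjusted p = 0.00936 and 0.0204). Of the other markers on this list, Cd8a, Cd8b1 and Cd3g had log2 fold changes of -0.03, -0.12 and -0.15, and Cd3d and Cd3e of 0.12 and 0.13. None of these passed the threshold. Marker lists of macrophages, natural killer cells and B cells had lower mean levels in NFAT5 KO libraries, and a list of regulatory and CD4 T cell markers a higher one. Their values stand beside the genes they bear on. In bulk RNA, fewer cells of a type and less RNA per cell cannot be told apart.

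NFAT5 is a transcription factor of the Rel family, best known for switching on genes that protect cells from hypertonic stress, and it is also expressed in T cells. It binds DNA elements built around the core TGGAAA, which it shares with the calcium-regulated NFAT factors. The 7 genes belong to no common family. Spp1 encodes osteopontin, a secreted phosphoprotein that binds CD44 and integrins and is made by macrophages and by activated T cells. Epdr1 encodes a secreted, ependymin-related glycoprotein also found in lysosomes. Nrn1 encodes neuritin, a small protein held on the cell surface by a glycolipid anchor, and Nrgn encodes neurogranin, which binds calmodulin. Both were first studied in neurons, and Nrn1 is also known from regulatory and anergic T cells. Gm156 is a predicted gene inside the natural killer gene complex, a cluster of C-type lectin receptor genes. Tpbgl is the paralog of Tpbg, which encodes a leucine-rich surface protein, and Dapl1 is related to the death-associated protein gene Dap.

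The DNA before the start sites is shown so that the genes that went to 0 or close to it can be compared with each other for the NFAT core. The RefSeq promoter table (GRCm38.p6) held windows of 300 bases, 250 before and 50 after a start, for 5 of the 7 genes, namely Spp1, Nrgn, Epdr1, Tpbgl and Dapl1; Nrn1 and Gm156 are only named. Each stretch is written 5′ to 3′ on the gene's own strand and ends before the first annotated transcribed base. Capitals mark a match, on either strand, to TGGAAA, to the AP-1 site TGANTCA, to the RUNX core ACCACA, to the CCAAT box or to the TATA box form TATAAA.
Spp1, chr5:104434861-104435110, plus strand: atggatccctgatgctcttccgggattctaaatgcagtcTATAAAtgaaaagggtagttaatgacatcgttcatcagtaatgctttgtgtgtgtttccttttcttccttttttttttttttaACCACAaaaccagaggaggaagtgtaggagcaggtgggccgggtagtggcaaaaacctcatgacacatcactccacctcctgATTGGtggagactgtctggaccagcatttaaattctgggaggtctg
Nrgn, chr9:37552905-37552995, minus strand: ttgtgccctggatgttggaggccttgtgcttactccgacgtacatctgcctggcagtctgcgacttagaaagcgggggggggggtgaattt
Epdr1, chr13:19619928-19620080, minus strand: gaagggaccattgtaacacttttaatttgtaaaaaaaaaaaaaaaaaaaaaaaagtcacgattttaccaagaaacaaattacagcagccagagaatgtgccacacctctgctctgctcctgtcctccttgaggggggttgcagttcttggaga
Tpbgl, chr7:99627104-99627353, minus strand: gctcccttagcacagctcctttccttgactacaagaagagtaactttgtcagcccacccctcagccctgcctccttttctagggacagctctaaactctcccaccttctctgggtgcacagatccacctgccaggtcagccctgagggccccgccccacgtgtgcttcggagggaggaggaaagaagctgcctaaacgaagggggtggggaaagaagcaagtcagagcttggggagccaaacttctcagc
Dapl1, chr2:59484403-59484652, plus strand: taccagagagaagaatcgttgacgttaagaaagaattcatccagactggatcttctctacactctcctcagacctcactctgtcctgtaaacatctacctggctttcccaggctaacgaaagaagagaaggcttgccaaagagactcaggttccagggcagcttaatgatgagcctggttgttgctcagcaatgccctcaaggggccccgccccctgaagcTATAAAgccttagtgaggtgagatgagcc

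TGGAAA and TGANTCA were in none of these 5 stretches. The Spp1 stretch held 1 TATAAA match, 1 match to ACCACA and 1 to the CCAAT box, the last on the opposite strand, and the Dapl1 stretch held 1 TATAAA. The second Spp1 window, chr5:104435942-104436241 and not printed, held 1 TGGAAA, and the Nrgn window held 1 CCAAT outside the printed bases. No match overlapped another. Over all 32851 windows, TGGAAA was in 21.4%, the site TGANTCA in 7.81%, the core ACCACA in 16.8%, the box CCAAT in 37.4% and the form TATAAA in 13.6%. A match is a description and not a binding site, and the lack of one says only that these letters are not in this window.

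Spp1 (ENSMUSG00000029304, GRCm38 chromosome 5, 104435118 to 104441050, plus strand) was among the higher of the 7 genes in WT cells and almost gone from NFAT5 KO cells. In the WT libraries, in the order given above, it stood at 144, 119, 80.2, 130.4 and 95.03 CPM, a mean of 114 ± 26.1 (SD, n = 5). In the NFAT5 KO libraries it stood at 5.30, 0.696, 2.91, 0 and 6.86 CPM, a mean of 3.15 ± 2.93 (SD, n = 5). All WT libraries were high and within 1.80-fold of each other, and the lowest of them was 11.7-fold above the highest NFAT5 KO library. The 5 WT libraries together held 16380 reads of Spp1 and the 5 NFAT5 KO libraries 426. The fitted log2 fold change, NFAT5 KO minus WT, was -5.17 (SE 0.71).

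Epdr1 (ENSMUSG00000002808, chromosome 13, 19591706 to 19619927, minus strand) was a low gene that was read in every WT library and in no NFAT5 KO library. The WT libraries stood at 3.54, 5.18, 3.63, 9.41 and 4.55 CPM, a mean of 5.26 ± 2.41 (SD, n = 5), from 104 to 279 reads each. Against a floor of 3 counts over the whole NFAT5 KO group, which is 0.0223 CPM, Epdr1 was at least 235.9-fold lower. WT 679_4 was the highest library, and the other 4 WT libraries lay close together.

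Tpbgl (ENSMUSG00000096606, chromosome 7, 99624082 to 99627103, minus strand) followed the same pattern at a lower level. It stood at 1.001, 0.886, 3.31, 2.56 and 1.75 CPM in WT, a mean of 1.90 ± 1.04 (SD, n = 5), from 26 to 104 reads, and at 0 in all 5 NFAT5 KO libraries. With the same floor it was at least 86.2-fold lower. The 2 WT libraries of label prefix 678 were the lowest, and the bound within that prefix was only 23.3-fold. Of the 13081 genes tested, 4 had 0 reads in all NFAT5 KO libraries, and the other 2, Cd300c2 and Gm46519, were lower in WT, at 0.759 and 0.7095 CPM. No tested gene was at 0 in all WT libraries.

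Gm156 (ENSMUSG00000071158, chromosome 6, 129766568 to 129784270, minus strand) stood at 142.7, 65.0, 93.8, 131.6 and 71.7 CPM in WT, a mean of 101 ± 34.9 (SD, n = 5). In NFAT5 KO it stood at 0.896, 5.49, 0.628, 0.308 and 1.198 CPM, a mean of 1.70 ± 2.14 (SD, n = 5). The groups were far apart, with 11.8-fold between the lowest WT and the highest NFAT5 KO library, which was 678_5. The log2 fold change was -5.88 (SE 0.63), and it was -7.06 without NFAT5 KO 678_5.

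Nrgn (ENSMUSG00000053310, chromosome 9, 37544492 to 37552904, minus strand) stood at 82.4, 33.8, 84.9, 144.5 and 81.4 CPM in WT, a mean of 85.4 ± 39.3 (SD, n = 5). In NFAT5 KO it stood at 10.8, 2.49, 2.87, 4.21 and 4.30 CPM, a mean of 4.94 ± 3.39 (SD, n = 5). The lowest WT library, 678_4, was 4.27-fold below the highest, 679_4, and NFAT5 KO 678_3 stood above the other NFAT5 KO libraries. The groups did not overlap, with 3.12-fold between the nearest libraries. The log2 fold change was -4.11 (SE 0.46).

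Nrn1 (ENSMUSG00000039114, chromosome 13, 36725361 to 36735131, minus strand) was the steadiest of the 7 genes across WT libraries and was reduced rather than lost. It stood at 44.7, 37.9, 44.7, 55.6 and 41.4 CPM in WT, a mean of 44.8 ± 6.62 (SD, n = 5), and at 15.8, 9.30, 13.6, 9.76 and 12.1 CPM in NFAT5 KO, a mean of 12.1 ± 2.71 (SD, n = 5). The lowest WT library was 2.40-fold above the highest NFAT5 KO library. The log2 fold change was -1.89 (SE 0.18).

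Dapl1 (ENSMUSG00000026989, chromosome 2, 59484653 to 59505020, plus strand) came closest to an overlap of the groups. It stood at 37.3, 16.1, 42.2, 63.0 and 36.7 CPM in WT, a mean of 39.1 ± 16.7 (SD, n = 5), and at 14.6, 10.3, 9.46, 14.5 and 10.5 CPM in NFAT5 KO, a mean of 11.9 ± 2.49 (SD, n = 5). WT 678_4 was only 1.10-fold above NFAT5 KO 678_3, while the other 4 WT libraries were well apart from the NFAT5 KO group. The log2 fold change was -1.72 (SE 0.29). WT 678_4 was thus the lowest WT library for Nrgn, Gm156, Tpbgl, Nrn1 and Dapl1, but not for Spp1 or Epdr1.

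**Figure D1:**
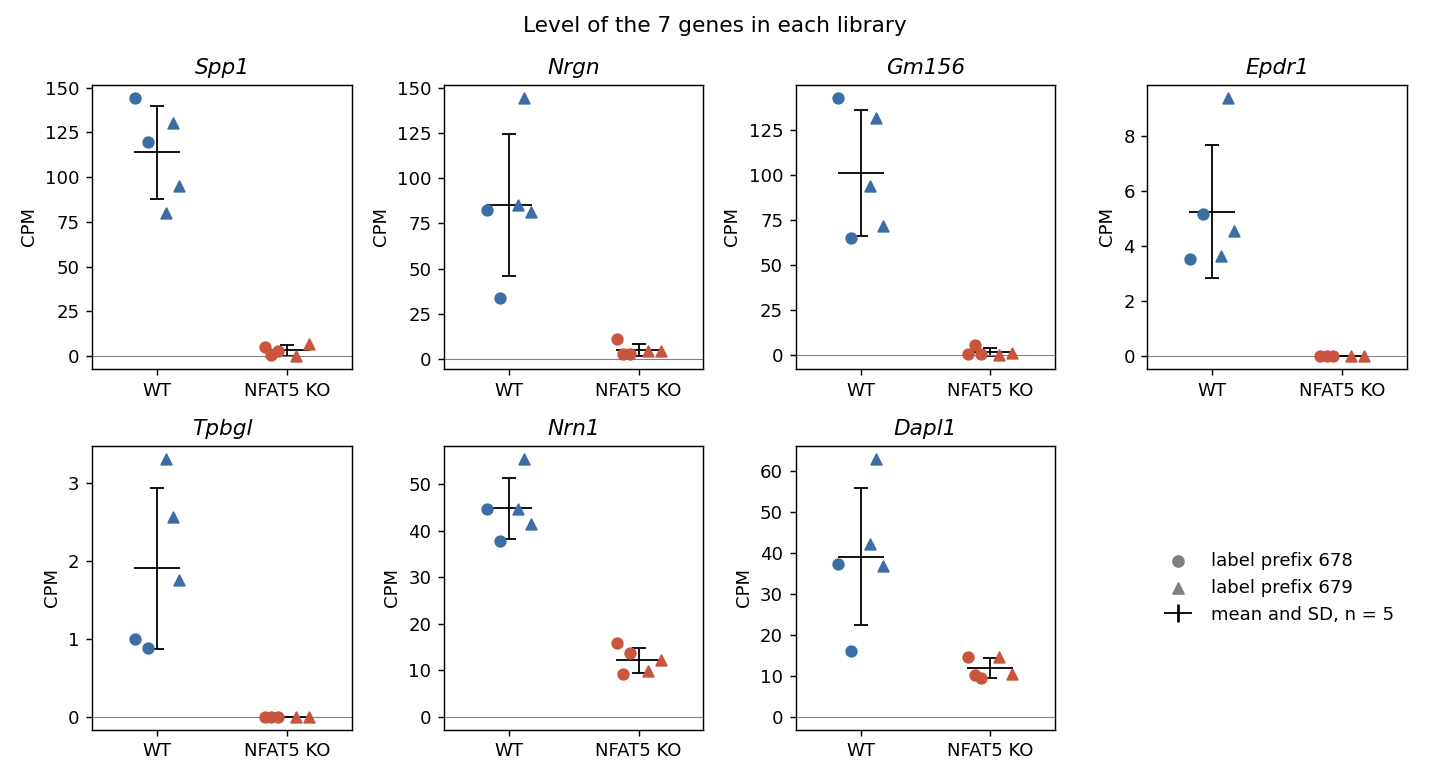
CPM of each of the 7 genes in each of the 10 libraries, 1 panel a gene, with WT and NFAT5 KO libraries in separate columns, the label prefix as the symbol, and group means with SD. The NFAT5 KO points lie below the WT points in every panel, at 0 for Epdr1 and Tpbgl, and closest to them for Dapl1, where the nearest libraries stood at 16.1 and 14.6 CPM.

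In 7 of the 7 genes every NFAT5 KO library was below every WT library. Among all 13081 tested genes 839 (6.41%) had this pattern (513, or 3.92%, had the reverse), and since the 7 were picked on the same contrast nothing is read from that count. All 7 passed the filter on low counts, Epdr1 and Tpbgl on their WT libraries alone. Spp1 and Gm156, at 0 and 9 reads in NFAT5 KO 679_2, also needed their WT libraries to pass. Of the 9393 tested genes with a WT mean of at least 5 CPM, ordered from the most negative fitted log2 fold change, Gm156 was at place 4, Spp1 at 5, Nrgn at 11, Nrn1 at 191 and Dapl1 at 224. Epdr1 was at place 1, but its fitted value depends on the model's prior count and is no bound. Tpbgl was under 5 CPM and was not ranked. Among the genes near the top that were not picked were Igfbp7 (-6.00), Gm15287 (-5.92), Troap (-4.77) and Nek2 (-4.67 on the log2 scale). At the lower end, Xrcc3 and Hpse, at places 223 and 225, both stood at -1.72 like Dapl1, so the 7 genes are a choice and not a full list of genes with such a change.

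**Figure D2:**
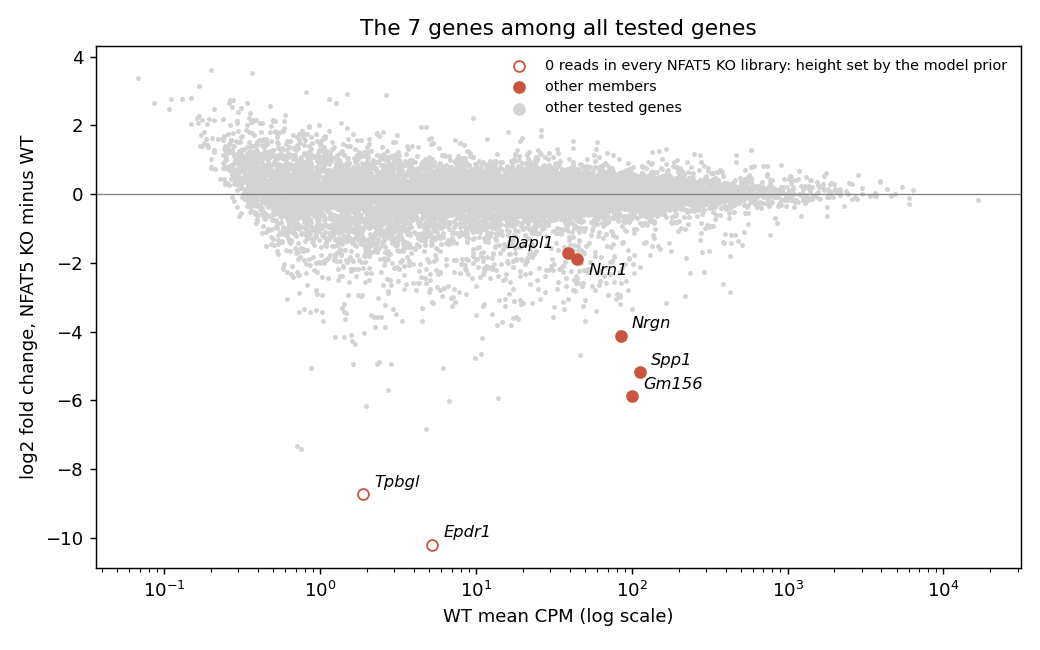
Log2 fold change (NFAT5 KO minus WT) against the WT mean CPM on a log axis for all 13081 tested genes in grey and the 7 genes in red. Gm156, Spp1 and Nrgn lie at -5.88, -5.17 and -4.11 with few other genes at their level around them, Nrn1 and Dapl1 lie nearer the cloud, and the open circles of Epdr1 and Tpbgl have a height set by the model's prior.

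Both label prefixes held both genotypes (678: 2 WT and 3 NFAT5 KO libraries; 679: 3 WT and 2 NFAT5 KO libraries), and each of the 7 genes was lower in NFAT5 KO within each. The log2 ratio of the mean CPM was -5.47 in prefix 678 and -4.89 in prefix 679 for Spp1. It was -3.43 and -4.60 for Nrgn, -5.47 and -7.04 for Gm156, -1.68 and -2.11 for Nrn1, and -1.23 and -1.92 for Dapl1. An interaction of genotype with prefix, tested with the edgeR quasi-likelihood test over all genes, called 0 of 13081 genes (0%), with 377 at an unadjusted p below 0.05. For these 5 genes the unadjusted p ran from 0.195 to 0.677, which does not show that the prefixes acted alike. For Epdr1 and Tpbgl, at 0 in all NFAT5 KO libraries, the fitted interaction depends on the model's prior count and is not reported.

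Levels of different genes were compared in TPM (Salmon's abundance per transcript length, scaled to a common total). In WT libraries the order was Gm156 at 157 ± 47.8, Dapl1 at 125 ± 50.3, Nrgn at 119 ± 54.6 and Spp1 at 101 ± 19.4 TPM (SD, n = 5). The ranges of neighbours among these 4 overlapped, so their order is not resolved. Nrn1 followed at 49.5 ± 6.71 TPM, below every library of Spp1, and then Epdr1 at 2.67 ± 1.16 and Tpbgl at 0.964 ± 0.553 TPM, whose ranges overlapped. In NFAT5 KO libraries Dapl1 led at 38.9 ± 8.76 TPM, above all libraries of Nrn1 at 12.2 ± 1.05 TPM. Nrgn (6.88 ± 3.80), Gm156 (2.88 ± 3.94) and Spp1 (2.78 ± 2.46 TPM) came next with overlapping ranges. The 2 genes that kept the most RNA thus had the highest means of the 7 in NFAT5 KO cells. The ranges of Nrn1 (11.1 to 13.9 TPM) and Nrgn (up to 13.5 TPM) overlapped there.

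Most reads of each gene were assigned to 1 transcript, and for the 5 genes with reads in NFAT5 KO it was the same transcript in both genotypes. Spp1-201 took 91.1% of the Spp1 reads of the WT libraries and Spp1-205 took 8.11%, and both hold the same 882 coding bases. Spp1-205 was read in all 5 WT libraries, at 4.85% to 12.2% of the gene, and in 1 NFAT5 KO library, 679_6, at 5.59%. Gm156 alone had a large second transcript. Gm156-201 took 77.8% of its WT reads and Gm156-202 took 22.2%, with 20.2% to 23.7% in each WT library. The 2 transcripts have 669 and 540 coding bases, of which 539 are shared. In NFAT5 KO libraries Gm156-202 took 8.09% to 46.05%, but on 9 to 150 reads of the gene, and the planned test of this share was not run because 679_2 had under 10 reads.

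Nrn1-201 took 83.6% of the Nrn1 reads in WT, and Nrn1-203, Nrn1-205 and Nrn1-202 took 6.47%, 5.73% and 4.04%. In NFAT5 KO, on 254 to 388 reads of the gene, Nrn1-201 took 83.6%, Nrn1-203 took 10.97% (5.88% to 20.9% by library) and Nrn1-205 was at 0 in 3 of 5 libraries. Nrgn-201 took 94.8%, Epdr1-201 97.4% and Dapl1-201 98.6% of their genes' reads in WT, and Tpbgl has 1 transcript with 1 exon. In Epdr1 all 4 transcripts, coding or not, were at 0 reads in NFAT5 KO.

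**Figure D3:**
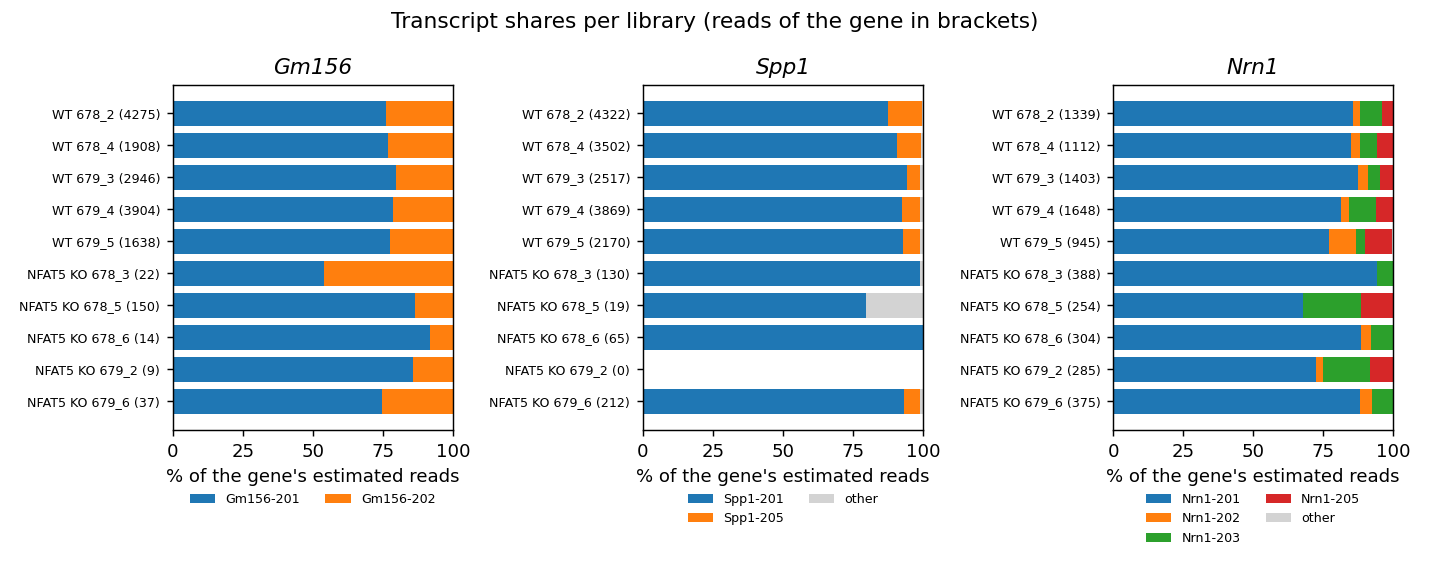
Share (%) of the estimated reads of Gm156, Spp1 and Nrn1 assigned to each transcript, 1 bar a library, with the reads of the gene in brackets. Gm156-202 lies between 20.2% and 23.7% in the WT bars, while Spp1-205 (4.85% to 12.2%) and Nrn1-202 (2.51% to 9.83%) vary more; the NFAT5 KO bars of Gm156 and Spp1 rest on few reads and vary, and Spp1 has no bar in NFAT5 KO 679_2, which had 0 reads.

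Salmon divides reads that several genes could have given, so the sequence shared with other genes was measured in words of 31 bases. The transcripts Nrgn-201 and Epdr1-201 shared 0% of their words with any other gene, Dapl1-201 shared 0.552%, Gm156-201 2.30% and Spp1-201 3.41%. The genes that share with Gm156-201 and Spp1-201, Gm16242 and Gm42793, had 0 reads. Nrn1 and Tpbgl overlap a gene on the other strand. Nrn1-201 shared 29.8% of its words with Fars2, a mitochondrial tRNA synthetase gene, and without a stated strand setting the reads there cannot be told apart. Fars2 itself stood at 35.8 ± 3.02 CPM in WT libraries against 26.8 ± 5.02 CPM without NFAT5 (SD, n = 5 each; edgeR adjusted p = 0.0995). Nrn1-205 and Nrn1-202, which share no word with another gene, held 369 and 261 reads in WT and 52.4 and 34.1 reads in NFAT5 KO libraries. Tpbgl shared 38.0% of its words with Gm10605, which had 9 reads in the WT libraries and 0 in the NFAT5 KO libraries.

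The binding and pathway partners of the 7 genes were listed in 9 groups of 141 genes, of which 95 were tested. Over all tested genes 737 (5.63%) were lower and 442 (3.38%) higher in NFAT5 KO cells by the edgeR quasi-likelihood test at an adjusted p of 0.05, 9.01% in all, with a median log2 fold change of 0.02. Among the 95 partners 5 were lower and 5 higher, which is 10.5% and close to that background. In the lists with tested genes the share called ran from 0% to 25%. The lists are described by counts and medians only, and no test of a whole list was run.

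Several receptor genes of osteopontin, though not all of those listed, stayed expressed where Spp1 was nearly absent. Cd44, the hyaluronan receptor that also binds osteopontin, was at 218 ± 26.8 against 222 ± 14.1 CPM (WT against NFAT5 KO), and Itgav, the integrin alpha v chain, at 83.7 ± 25.6 and 77.7 ± 12.4 CPM. Itgb5, an integrin chain too low to test, had means of 0.714 ± 0.736 against 0.00733 ± 0.0164 CPM, in the same order. Itgb6, Itga8 and Itga9 were not read in any library. Of 8 tested genes in this list 1 (12.5%) changed. Itgb1, the beta 1 integrin chain, rose from 1072 ± 130 to 1416 ± 163 CPM (SD, n = 5 each; log2 fold change 0.40, SE 0.10; edgeR adjusted p = 0.0277), with every NFAT5 KO library above every WT library. This call held in 3 of 10 fits, each without 1 library, with an adjusted p of up to 0.0983. The other 4 members of the SIBLING family of bone and tooth matrix proteins (Ibsp, Dmp1, Dspp and Mepe) were at 0 in all libraries.

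Of the 19 tested calmodulin genes and calmodulin partners, the list for Nrgn, 0 passed the threshold (edgeR), with 6 at an unadjusted p below 0.05. Calm3, a calmodulin gene, stood at 147 ± 21.1 CPM in WT libraries against 112 ± 14.4 CPM in NFAT5 KO ones (adjusted p = 0.0624). Of 7 tested AMPA receptor, neuritin paralog and glycolipid anchor genes, the first list for Nrn1, 0 passed (edgeR), with 1 at an unadjusted p below 0.05, Gpaa1, of the complex that attaches the anchor, at 66.0 ± 10.7 and 47.2 ± 9.38 CPM (adjusted p = 0.0697). Pigs, of the same complex, stood at 195 ± 10.7 and 211 ± 9.13 CPM (adjusted p = 0.348).

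Among 12 tested genes of anergic and regulatory T cells, with which Nrn1 is known to be expressed, 1 fell and 2 rose. That is 25% called, against 9.01% of all tested genes, and the list as a whole was not tested. Izumo1r, which encodes the folate receptor 4 of regulatory and anergic T cells, fell from 43.0 ± 19.1 to 11.8 ± 1.70 CPM (by log2 fold change, -1.86, SE 0.32; edgeR adjusted p = 0.00306), and the call held without any 1 library. With the macrophage marker mean as a covariate, a fit that left 0 partner genes called, it was lost, at -1.13 (adjusted p = 0.472). Egr2 and Egr3, transcription factors switched on by T cell receptor signals and tied to anergy, rose. Egr2 went from 67.5 ± 23.3 to 126 ± 21.5 CPM (0.90, SE 0.22; adjusted p = 0.0220) and Egr3 from 25.05 ± 13.0 to 60.7 ± 4.99 CPM (1.28, SE 0.34; adjusted p = 0.0361). The Egr2 call held in 6 and the Egr3 call in 3 of 10 such fits, with adjusted p of up to 0.0582 and 0.0937. The list thus held genes of both directions, and its median log2 fold change was -0.03. Beside it, 4 markers of regulatory and CD4 T cells summed to 5.97 to 17.02 CPM in WT and to 23.9 to 41.5 CPM without NFAT5 (mean log2 CPM higher by 0.74; two-sided exact permutation test, n = 5 each, p = 0.0397, adjusted 0.0952). Of these markers 2 were tested and 1 rose, Cd40lg, the CD40 ligand gene, from 4.799 ± 2.26 to 18.7 ± 3.71 CPM (edgeR adjusted p = 0.00175), while Foxp3, which defines regulatory T cells, was at 0.684 ± 0.762 and 0.195 ± 0.416 CPM. Cd4 itself was too low to test, at 0.0472 ± 0.106 and 0.633 ± 1.03 CPM. The difference of this marker list stayed the same in 7 of 13 alternative settings. Its unadjusted p (exact permutation test) was 0.0794 with a prior count of 0.5 and 0.103 without NFAT5 KO 678_6. The part of such cells in the levels above was not tested.

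Lysosomal proteins, the list for Epdr1, had a median of -0.03 on the log2 scale, and 1 of 16 tested genes (6.25%) fell. Ctsb, the protease cathepsin B, went from 655 ± 76.1 to 512 ± 42.3 CPM (-0.35, SE 0.09; edgeR adjusted p = 0.0349), and the call held in 4 of 10 fits without 1 library (up to 0.0749) but not with the label prefix as a block (0.0648). In the list for Tpbgl, of WNT signalling, 1 of 9 tested genes (11.1%) rose. Axin1, a scaffold of the beta-catenin destruction complex, went from 94.3 ± 9.14 to 125 ± 16.002 CPM (0.41, SE 0.11; adjusted p = 0.0341), and this held in 2 of 10 such fits (up to 0.0988) and not with the block (0.0545). Tpbg, the paralog of Tpbgl, was too low to test, at 0.176 ± 0.322 CPM in WT libraries and 0 without NFAT5. Of the 7 tested death-associated protein genes and partners listed for Dapl1, 0 passed (edgeR), with 1 at an unadjusted p below 0.05. That gene was Nfatc3, at 219 ± 44.7 and 288 ± 40.4 CPM (adjusted p = 0.123). Dapk2, a death-associated protein kinase gene, stood at 9.18 ± 2.74 and 6.02 ± 2.81 CPM (adjusted p = 0.301).

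The C-type lectin genes around Gm156 included several that changed. Of 17 tested genes of the natural killer gene complex 3 fell and 1 rose, which is 23.5% called, against 9.01% of all tested genes. The median log2 fold change was -0.29, and the list as a whole was not tested. Klre1, whose product pairs with other lectin receptors on natural killer and CD8 T cells, fell from 47.5 ± 12.9 to 15.3 ± 1.52 CPM (SD, n = 5 each; -1.64, SE 0.20; edgeR adjusted p = 4.5e-04). Klri2, a partner of Klre1, fell from 19.4 ± 6.64 to 5.20 ± 1.67 CPM (-1.90, SE 0.31; adjusted p = 0.00232). Klra3, a Ly49 family receptor gene, fell from 5.91 ± 3.25 to 1.204 ± 0.530 CPM (-2.29, SE 0.52; adjusted p = 0.0157). Cd69, an activation and tissue residency marker, rose from 167 ± 42.6 to 418 ± 115 CPM (1.33, SE 0.21; adjusted p = 0.00184). All 4 calls held in the 10 fits without 1 library, Klra3 with an adjusted p of up to 0.0499. With the macrophage marker mean as a covariate, itself correlated with genotype (r = -0.74), all 4 calls were lost. The log2 fold changes were then -1.41 for Klre1, -2.07 for Klri2, -1.58 for Klra3 and 0.96 for Cd69 (edgeR adjusted p = 0.0982, 0.143, 0.610 and 0.176). In that fit the genes called over the whole table went from 1179 to 45, and the partners called from 10 to 0.

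The change was uneven along the cluster. Klri2 lies 26.1 kb from Gm156, and between the falling genes lay Klrk1, the NKG2D receptor gene, and Klrd1, the CD94 gene, at -0.07 (adjusted p = 0.570) and -0.21 (adjusted p = 0.339) on the log2 scale. Klrc1, the NKG2A gene, stood at 615 ± 81.8 and 501 ± 70.5 CPM (adjusted p = 0.138). Other Ly49 and lectin genes were low or variable. Klra5 stood at 1.92 ± 1.87 and 0.542 ± 0.679 CPM (adjusted p = 0.350). Some Ly49 genes too low to test were at 0 in all NFAT5 KO libraries. Klra17, 46.9 kb from Gm156, was read in every WT library, with a mean of 0.649 CPM. Klra6, Klra7 and Klra1 had WT means of 1.33, 0.255 and 0.0637 CPM, each with at least 1 WT library at 0. Of other untested Ly49 genes, Klra8 was read in NFAT5 KO alone, and Klra2, Klra4 and Klra9 in both genotypes. Genes of this family resemble each other, so reads among close Ly49 members are less certain.

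**Figure D4:**
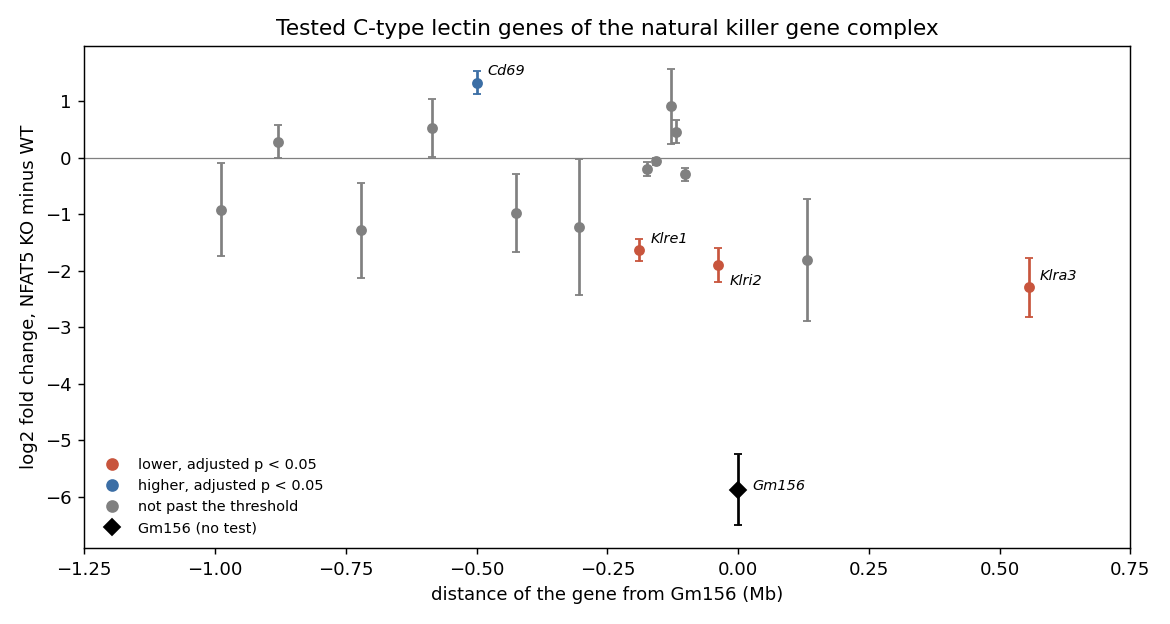
Log2 fold change (NFAT5 KO minus WT) with its SE for 16 of the 17 tested C-type lectin genes, against the distance of their annotated start from that of Gm156 in Mb; Klrg1, farther away, is left out. Klre1, Klri2 and Klra3 passed the threshold as lower and Cd69 as higher, with genes near 0 between them, and Gm156 at -5.88 is drawn for position without a test.

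The summed level of natural killer cell markers ran from 33.4 to 71.8 CPM in WT libraries, and from 18.4 to 25.9 CPM in NFAT5 KO ones, over 5 listed genes of which 3 were tested and 1, Klre1, fell. The mean log2 CPM of the list differed by -0.62 (two-sided exact permutation test, n = 5 each, p = 0.0238, adjusted 0.0714), and Klrb1c and Tyrobp did not pass (edgeR adjusted p = 0.545 and 0.730). Klre1 made up most of the summed level and is also in the lectin list, and Ncr1, a receptor that defines natural killer cells, was at 0 in all 10 libraries. The part of such cells in the level of Gm156 was not tested.

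Macrophages are a known source of osteopontin, and the mean level of their markers was lower in NFAT5 KO libraries. The summed level of 14 markers was 113, 72.0, 156, 106 and 141 CPM in WT, and 71.5, 37.6, 39.0, 46.0 and 83.1 CPM in the NFAT5 KO libraries, and these ranges overlapped. The mean log2 CPM of the list was 1.36 ± 0.758 in WT and -0.62 ± 1.22 in NFAT5 KO (SD, n = 5 each; two-sided exact permutation test, p = 0.0238, adjusted over 12 marker lists 0.0714). Of 10 tested markers 1 fell, Adgre1, the F4/80 gene, from 2.26 ± 1.35 to 0.147 ± 0.201 CPM (edgeR adjusted p = 0.0387). Lyz2, the lysozyme gene of myeloid cells, stood at 48.5 ± 18.5 and 15.2 ± 14.04 CPM (adjusted p = 0.167), and no listed marker was at 0 in all libraries. Cd68 stood at 22.5 ± 2.56 and 17.9 ± 3.55 CPM (adjusted p = 0.269). Itgam, alone among the tested markers, had a positive log2 fold change (0.27), at 11.1 ± 5.73 and 13.3 ± 4.55 CPM (adjusted p = 0.743).

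Libraries with like marker sums differed in Spp1. WT 678_4 had a sum of 72.0 CPM and Spp1 at 119 CPM, while NFAT5 KO 678_3 and 679_6, with sums of 71.5 and 83.1 CPM, had Spp1 at 5.30 and 6.86 CPM. Within the WT libraries, the 2 with the highest sums, 679_3 and 679_5, had the lowest Spp1. Within the NFAT5 KO libraries the 2 with the highest sums had the highest Spp1. With the marker mean as a covariate, which was itself correlated with genotype (r = -0.74), the fitted log2 fold changes were -4.45 for Spp1, -3.04 for Nrgn, -1.66 for Nrn1, -6.71 for Gm156 and -1.27 for Dapl1. The part of macrophages in the level of Spp1 was not tested.

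**Figure D5:**
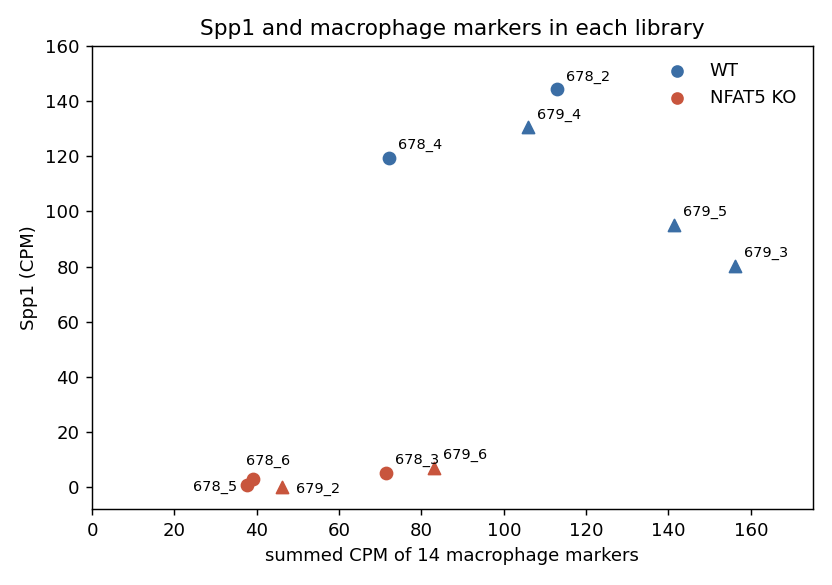
Spp1 (CPM) against the summed CPM of 14 macrophage markers, 1 point a library, coloured by genotype, with the label prefix as the symbol. WT 678_4 and NFAT5 KO 678_3 have nearly the same marker sum, at 72.0 and 71.5 CPM, and Spp1 at 119 and 5.30 CPM.

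Markers of other cell types that could carry RNA of the 7 genes were mostly low. Rbfox3, Snap25, Syt1 and Stmn2, of neurons, were at 0 in all libraries, and the 6 neuron markers summed to at most 0.886 CPM in a WT library and 0.623 CPM in an NFAT5 KO one. Of platelets, which carry Nrgn RNA, Ppbp, Gp1bb and Treml1 were at 0 in all libraries. The 8 platelet markers summed to 15.7 to 70.2 CPM (WT) and 47.4 to 93.3 CPM (NFAT5 KO), most of it Itgb3, an integrin chain that is also in the osteopontin receptor list, at 46.9 ± 20.1 and 68.6 ± 16.1 CPM (edgeR adjusted p = 0.316). Melanoma markers summed to 1.19 to 4.27 CPM (WT) and 0.916 to 3.79 CPM (NFAT5 KO). B cell markers, mostly Cd79b, summed to 8.41 to 14.4 and 5.15 to 11.001 CPM (two-sided exact permutation test of the mean log2 CPM, n = 5 each, p = 0.00794, the smallest the design allows, adjusted 0.0476), and their part in the levels of the 7 genes was not tested.

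The nearest protein-coding neighbours, 3 on each side of each gene, were examined to see how far along the chromosome the difference reached. Of 42 neighbours 22 were tested, 3 of them fell and 0 rose (edgeR, 7 at an unadjusted p below 0.05), which is 13.6% called, against 9.01% of all tested genes, with a median log2 fold change of -0.04. Beside Spp1, the related matrix protein genes Mepe, Ibsp and Dmp1 were at 0 in all libraries, and BC005561 stood at 5.76 ± 2.14 and 7.89 ± 4.23 CPM (adjusted p = 0.566). Beside Nrgn, 2.79 kb away, Siae, a sialic acid esterase gene, stood at 26.9 ± 6.43 and 14.5 ± 7.49 CPM (adjusted p = 0.191), while Tbrg1 was at 145 ± 10.2 and 146 ± 14.1 CPM.

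The 3 neighbours that fell were Klri2 beside Gm156, Stard3nl beside Epdr1 and Baz2b near Dapl1. Stard3nl, a cholesterol-binding endosomal protein gene, lay 196 kb from Epdr1 and went from 50.9 ± 7.12 to 36.1 ± 5.39 CPM (-0.50, SE 0.14; edgeR adjusted p = 0.0455). Baz2b, a bromodomain gene, lay 394 kb from Dapl1 and went from 15.8 ± 7.26 to 7.65 ± 1.81 CPM (-1.05, SE 0.29; adjusted p = 0.0420). These 2 calls held in 2 and 3 of the 10 fits without 1 library, with adjusted p of up to 0.117 and 0.0927. With the label prefix as a block Stard3nl did not pass (adjusted p = 0.0773). Between Dapl1 and Baz2b, Tanc1 stood at 22.2 ± 8.17 and 23.6 ± 5.63 CPM (adjusted p = 0.880). Arrb1 beside Tpbgl stood at 14.8 ± 5.60 and 24.5 ± 22.2 CPM (adjusted p = 0.401).

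The genes whose pattern over the 10 libraries was most like that of each of the 7 were ranked by Pearson's r of log2 CPM among the other tested genes. They share the libraries and the genotype difference that chose the 7, so the r values are a description. Hmmr (r = 0.989), Sgo1 (0.976) and Nek2 (0.976) were nearest to Spp1, and Mcm6 (0.991), Hist1h1e (0.990) and the pseudogene Gm4739 (0.989) to Nrgn. Ccnb2 (0.997) and Cdc6 (0.990) were nearest to Nrn1, and Dck (0.982), Cenpe (0.980) and the antisense gene Gm15287 (0.979) to Gm156. For Epdr1 they were Napsa (0.986), Gm46519 (0.985) and Bco1 (0.978), for Tpbgl Gm46519 (0.983), Gm42427 (0.973) and Gm4316 (0.972), and for Dapl1 the pseudogene Gm10182 (0.982), Ehd4 (0.981) and Me2 (0.979). Likeness of pattern did not mean a like size of difference. Ccnb2 stood at 115 ± 41.5 against 8.31 ± 4.60 CPM (log2 fold change -3.80, with -1.89 for Nrn1), and Mcm6 at 857 ± 106 against 480.2 ± 42.1 CPM (-0.84, with -4.11 for Nrgn).

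After each genotype's mean was subtracted, the variation left was that between libraries of 1 genotype, and some of the nearest genes recurred. For Nrn1 they were Ccnb2 (0.964), Cdc6 (0.961) and Rabepk (0.949), so Ccnb2 and Cdc6 led both times. For Spp1 they were Gm49331 (0.979), Gm26718 (0.974) and Hmmr (0.953), and for Nrgn Crip1 (0.933), Ap2s1 (0.931) and Hist1h1e (0.930). For Gm156 they were Cd38 (0.970), Impa2 (0.963) and Gpi1 (0.963), and for Dapl1 Me2 (0.956), AC168977.1 (0.943) and Nrp1 (0.941). For Epdr1 they were Xist (0.959), Ifi206 (0.943) and Sf3b4 (0.938), and for Tpbgl they included Rab37 (0.918) and Ift80 (0.899). Epdr1 and Tpbgl, at 0 in NFAT5 KO, varied in the 5 WT libraries alone, and any spread of the other gene in NFAT5 KO lowered r. Spp1 and Gm156 varied most in NFAT5 KO libraries, on few reads. In log2 CPM, Spp1 ran from 6.33 to 7.17 in WT and from -3.79 (679_2, 0 reads) to 2.79 in NFAT5 KO. Gm156 ran from 6.02 to 7.16 in WT and from -1.39 to 2.48 (678_5) in NFAT5 KO. The r values of Spp1 and Gm156 thus rest largely on NFAT5 KO libraries.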

How the data were processed

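RNA of sorted tumour CD8 T cells was measured in 5 WT and 5 NFAT5 KO libraries. The authors deposited 1 Salmon table per library, with estimated counts, TPM and lengths for 140919 transcripts, per the file headers. The submitters' processing notes list GRCm38.p6 and mm10 as builds and Salmon 0.14.1 as tool; annotation release and strand setting: not given in the sources used here. Estimated counts were summed per gene by GENCODE M21 (140045 transcripts, 99.38%, matched; at most 0.228% of a library's counts did not) and rounded.

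The 13081 genes kept by filterByExpr were scaled with TMM and tested by quasi-likelihood in edgeR 4.0.16 (R 4.3.3, robust), with Benjamini-Hochberg adjustment at 0.05. Log2 CPM used a prior count of 2. SE is |log2 fold change| over the root of F. The fit was tested on simulated data. Marker lists were compared over the 252 arrangements of the libraries. Every pair of libraries differed by more than sampling noise. Counting error alone is covered by the floor of 3 counts. The alternatives were other scalings and filters, DESeq2 1.42.0, TPM with pseudocounts of 0.1 and 1, the main transcript alone, label prefix as a block or alone, a macrophage covariate, and leaving out each library.

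The 7 genes and all lists were chosen with earlier results of these data known. The rule for named genes took the 7, up to 4 called genes of each partner list or the 2 with the smallest p-values, called and nearest tested neighbours, the 3 genes nearest by r, and the genes ranked beside the member that fell least. A few genes the rule took are not reported here. Other genes given with values were chosen after these were seen, as were the interaction, the 31-base words and the motifs other than TGGAAA and TGANTCA.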

Additional observations from a re-analysis of the deposited data

Results flagged for a closer look

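In groups of 5, a library whose gap to the next is large against the whole range was marked by Dixon's test, which chance does in about 1 of 20 groups. Of 12 groups tested, 3 were marked. Nrgn was high in NFAT5 KO 678_3, at 10.8 CPM against 4.30 in the next library and 2.49 in the lowest. Epdr1 was high in WT 679_4, at 9.41 CPM against 5.18 and 3.54. Gm156 was high in NFAT5 KO 678_5, at 5.49 CPM against 1.198 and 0.308. In all 3 the library lay on its own side of the gap between the genotypes.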

How the results depend on the processing

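No planned setting turned the direction of any of the 7 genes. Without 1 library, the log2 fold change ran from -5.72 to -4.86 for Spp1, -4.64 to -3.85 for Nrgn, -2.02 to -1.81 for Nrn1, -7.06 to -5.62 for Gm156 and -1.94 to -1.49 for Dapl1, and the bounds from 182-fold to 257-fold for Epdr1 and 66.4-fold to 98.3-fold for Tpbgl. Within 1 label prefix the Epdr1 bound was 107.5-fold (678) and 119-fold (679), and Gm156 was at -7.03 in prefix 679. Genes called over the whole table were 0 in prefix 678 alone (edgeR; 1449 at an unadjusted p below 0.05), 325 in prefix 679 alone, 1893 with the DESeq2 Wald test, 45 with the macrophage covariate and 696 (without WT 678_2) to 1276 without 1 library. Partner genes called, 10 as reported, were 0 (16 unadjusted), 5, 18, 0 (10 unadjusted) and 5 to 13 under the same settings. Neighbours called, 3 as reported, were 0 (2 unadjusted) and 1 in prefixes 678 and 679, 0 (2 unadjusted) with the covariate, and 1 (without WT 679_3, 679_4 or 679_5) to 4 without 1 library. Partners called fell to 5 without WT 678_2 and to 6 without WT 679_3. The neuron marker difference, -0.0576 on the log2 scale, ran from -0.167 to 0.0563 (without WT 678_4) and was at no setting a call. The causes were not tested. No paired analysis was possible because no number occurs in both groups within a label prefix. With the prefix as a block, partners called were 8 and neighbours 2. For Epdr1 and Tpbgl, at 0 in all NFAT5 KO libraries, only the bounds are reported and not the fitted fold changes. The transcript share test was not run.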
